A study of Mus musculus with 6 samples.

Results

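Teneurins, latrophilins and fibronectin leucine-rich transmembrane (FLRT) proteins are cell surface molecules that bind one another across neighboring cells, and their genes were examined in mouse retinal ganglion cells (RGCs) whose axons grow to the side of their own eye or cross the midline. Members were chosen by name: Tenm1 to Tenm4, Adgrl1 to Adgrl3 and Flrt1 to Flrt3, which is 10 of the 18193 genes that have a probe set of their own on the array. A probe set is a group of short probes for a transcript, and each was taken only where the array annotation names exactly 1 gene. The 10 genes have 29 such probe sets, between 2 and 6 for each gene, and Tenm1 to Tenm4 and Adgrl1 to Adgrl3 carried the older names Odz and Lphn when the array was designed.

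The study compared ipsilateral with contralateral RGCs of C57BL/6J embryos, labelled E16 and taken at E16.5, on 6 Affymetrix arrays. All cells were treated alike: a rhodamine-conjugated dextran was placed on the cut optic tract for 2 h, the retinas of embryos from 2 litters were pooled by side, and dye-filled cells without the dead cell stain DAPI were sorted. Each of 3 independent rounds gave 1 ipsilateral and 1 contralateral array, so there were 3 arrays a group, each a pool of embryos, and the rounds had been selected for high Zic2 in the ipsilateral cells. The labels name no transgene or mutation in either group. Values are log2 intensities after robust multi-array averaging (RMA), and every difference is ipsilateral minus contralateral on that log2 scale, so that −1 stands for a 2-fold lower ipsilateral level. A call required a difference of 2-fold or more and a Benjamini–Hochberg adjusted p under 0.05 from limma.

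Teneurins are transmembrane proteins with a very large extracellular part, and they pair with teneurins or latrophilins on the facing cell. Latrophilins are G-protein-coupled receptors of the adhesion class that bind teneurins and FLRT proteins at the same time. FLRT proteins carry leucine-rich repeats, and besides latrophilins they bind the Unc5 receptors, through which they can repel axons. In the mouse visual system, loss of Tenm3 is known to disturb the way ipsilateral axons are laid out in their thalamic target.

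The arrays differed more between rounds than between sides, with medians from 5.80 to 6.70 and a gap of at most 0.06 within a round. Zic2, the transcription factor of ipsilateral RGCs by which the rounds were selected, differed by 1.59, 2.94 and 2.98 in rounds 1 to 3. Of 10 RGC markers, 9 lay above the filter level, a mean log2 value of 4.74, and Pou4f2 lay below it. The summed level of the 9 was 11.60 to 11.76 in ipsilateral and 11.79 to 12.02 in contralateral arrays. Markers of some other cells differed by side. All 12 microglia and macrophage markers were above the filter level. Their summed levels were 8.92 to 9.58 in ipsilateral and 4.81 to 5.87 in contralateral arrays. For 9 of 10 retinal progenitor markers, the summed levels were 9.89 to 11.30 and 8.13 to 8.56. For 4 of 5 mesenchyme markers, with Lum below the filter level, they were 6.38 to 8.08 and 4.96 to 6.20. The mesenchyme difference came mostly from round 1, with 3.12, 0.96 and 0.40 in rounds 1 to 3. For 4 of 5 photoreceptor precursor markers, with Rcvrn below the filter level, the summed level was higher in ipsilateral RGCs in each round, by 1.15, 1.31 and 2.11. For 6 of 8 endothelial and pericyte markers, with Cdh5 and Tek below the filter level, the summed levels overlapped. They were 6.34 to 7.47 in ipsilateral and 6.10 to 6.76 in contralateral arrays. For 6 of 7 amacrine and horizontal cell markers, with Gad1 below the filter level, the summed levels overlapped between the sides. Their median difference was 0.07, with single markers from −0.31 to 0.99. The summed levels of 2 of 4 astrocyte markers also overlapped (median difference 0.11), with Pax2 and Aldh1l1 below the filter level. The part of these cells in the values given here was not tested, and in sorted pools fewer cells with a transcript and less transcript per cell cannot be told apart.

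No member differed between ipsilateral and contralateral RGCs by the thresholds. All 10 genes had a probe set above the filter level in the mean of both sides, as had 15346 of all 18193 genes. Of their 29 probe sets 28 passed, as did 36029 of all 45037. The filter level is a percentile of the arrays' values and not a test of detection. Of the 28 probe sets, 0 were called in either direction by limma, where 0.244% of all 36029 probe sets were called as higher in ipsilateral RGCs and 0% as higher in contralateral RGCs. None reached an unadjusted p under 0.05 either, with or without a 2-fold difference, against 2.29% of all probe sets with and 2.66% without that condition. The largest difference of any probe set of the 10 genes was −0.84, so that 0 of 28 differed by 2-fold. With the replicate block, the ipsilateral and contralateral samples of a round are compared with each other. In that fit 0 of the 28 were called, as were 0.208% of all probe sets. Neither fit called any probe set as higher in contralateral RGCs, so the lack of such a call does not set the members apart. The study's own analysis, with the same nominal thresholds in other software, did call probe sets in that direction. Unless the block is named, each standard error (SE) given below is from the fit without it and includes the spread between rounds.

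The differences of the members were small and mostly negative. At the brightest probe set of each gene, 9 of 10 were negative, as were 52.5% of all 15346 genes, and the median difference was −0.13 against −0.01 for all genes. The medians were −0.30, −0.05 and −0.24 in rounds 1 to 3. In all 3 rounds, 4 of 10 members were lower in the ipsilateral sample, where 20.2% of all genes were, and 0 of 10 were higher, where 17.6% of all genes were. These 4 were Tenm3, Adgrl1, Adgrl2 and Adgrl3. A second quantile normalization left 1 of them, Adgrl1. The 9 RGC markers above the filter level had a median difference of −0.36, which was more negative than that of the members. Of these markers, 8 were negative, down to −0.92, and 1 was positive, at 2.04.

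**Figure D1:**
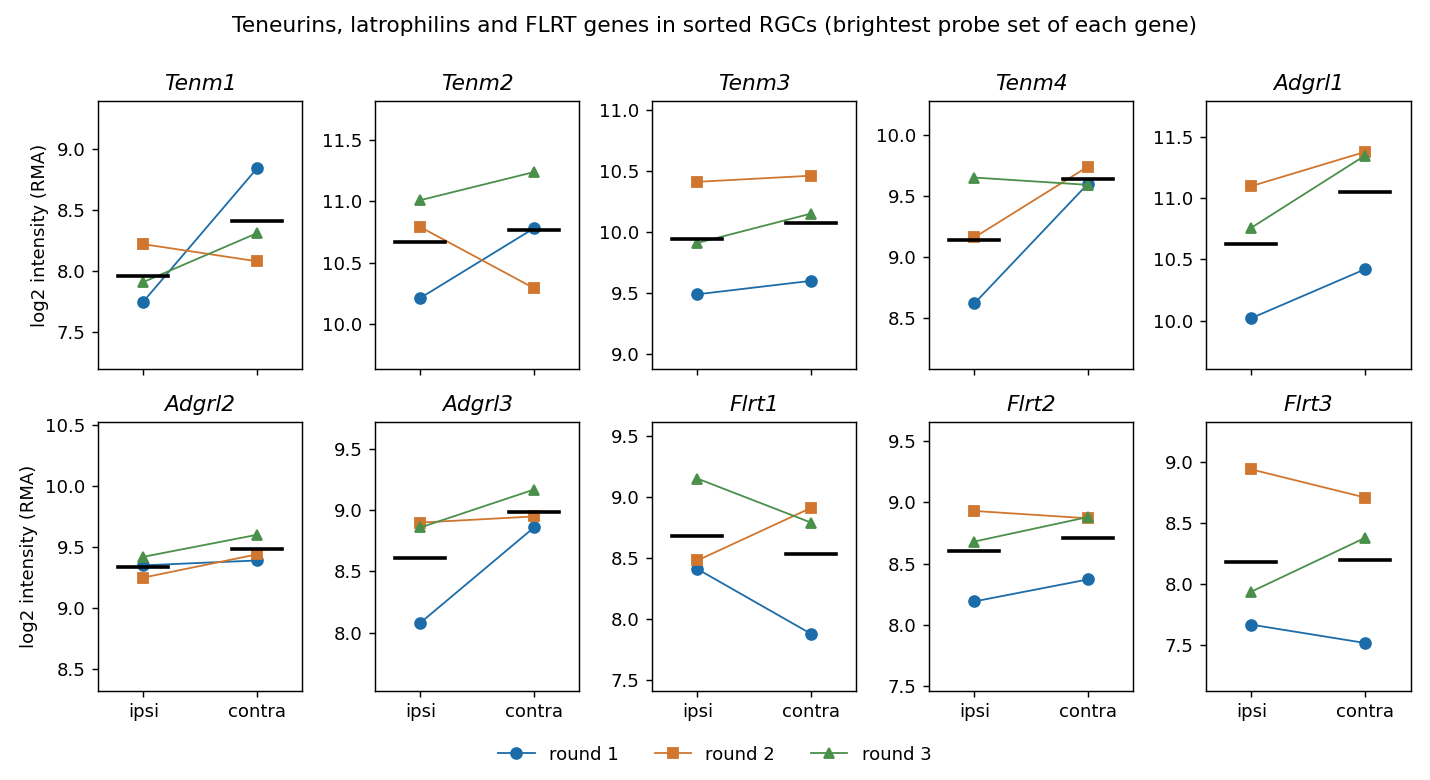
Log2 intensity (vertical axis, 2.2 log2 units high in every panel) of the brightest probe set of each of the 10 genes by side (ipsi, contra). Each symbol is 1 array, colored lines connect arrays of the same round and a black bar gives the group mean (n = 3); the groups overlap in every panel, and Tenm3 and the 3 Adgrl genes slope the same way in all 3 rounds.

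Tenm3, the teneurin best known from the ipsilateral visual projection, had nearly the same level on both sides. At its brightest probe set, 1429178_at, the log2 values were 9.49, 10.41 and 9.91 in ipsilateral and 9.60, 10.46 and 10.15 in contralateral RGCs of rounds 1 to 3. The groups overlapped, and each ipsilateral value lay slightly under the contralateral value of its round. The differences were −0.10, −0.05 and −0.24, with a mean of −0.13 (SE 0.42, limma adjusted p = 1.0). The 95% interval of that difference was −1.04 to 0.78, and −0.49 to 0.22 with the replicate block. The other probe set of Tenm3, 1449315_at, had values of 8.97, 9.26 and 9.38 against 8.67, 9.28 and 9.21 and a difference of 0.15. Its interval with the block was −0.22 to 0.52, so the probe sets did not share a direction.

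Tenm2, another teneurin, had 1420718_at as its brightest probe set. The log2 values there were 10.21, 10.79 and 11.01 in ipsilateral and 10.78, 10.29 and 11.24 in contralateral RGCs. Round 2 was higher and rounds 1 and 3 were lower in ipsilateral RGCs. The mean difference was −0.10 (SE 0.42, limma adjusted p = 1.0). A further probe set, 1457273_at, was lower in ipsilateral RGCs by a similar amount in each round, with differences of −0.56, −0.66 and −0.45. Its values were 9.82, 10.12 and 10.37 against 10.37, 10.78 and 10.82, so that the groups met but did not overlap. The mean difference of −0.56 had a limma adjusted p of 1.0, and of 0.210 with the block, where the unadjusted p was 0.00934. The remaining probe sets of Tenm2, 1454424_at and 1432988_at, come from 1 sequence record and had differences of −0.12 and −0.14.

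Tenm1, an X-linked teneurin, had levels of 7.75, 8.22 and 7.91 in ipsilateral and 8.84, 8.08 and 8.31 in contralateral RGCs at its brightest probe set. The difference of −0.45 (SE 0.40, limma adjusted p = 1.0) rested mainly on round 1, where it was −1.09, and was −0.24 without contralateral replicate 1. At 1458842_at, the dimmer probe set, round 1 differed by −0.03 and rounds 2 and 3 by −1.45 and −1.06. The values there were 6.83, 6.39 and 6.75 in ipsilateral and 6.86, 7.84 and 7.81 in contralateral RGCs, so that the groups did not overlap. The mean of −0.84 (SE 0.42) was the most negative of all 28, with a limma adjusted p of 1.0, and 0.303 when rounds were blocked. The probe sets of Tenm1 therefore gave negative means from different rounds.

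Tenm4, the teneurin known for its part in the myelination of axons, had the most negative difference among the brightest probe sets. Its log2 values were 8.62, 9.16 and 9.65 in ipsilateral and 9.60, 9.74 and 9.59 in contralateral RGCs. The contralateral values lay close together, whereas the ipsilateral values spread and reached the contralateral level in round 3. The difference was −0.50 (SE 0.41, limma adjusted p = 1.0), and 5.25% of all genes had a more negative one. The other probe sets, 1434530_at and 1455993_at, were lower in ipsilateral RGCs in all 3 rounds, with mean differences of −0.47 and −0.28. The difference at the brightest probe set was −0.24 without ipsilateral replicate 1 and −0.75 without ipsilateral replicate 3.

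Adgrl1 encodes the latrophilin first found as a receptor of black widow spider toxin, and its brightest probe set was the one among the 10 whose 95% interval with the replicate block lay wholly below 0. The log2 values of 1428510_at were 10.02, 11.10 and 10.76 in ipsilateral and 10.42, 11.38 and 11.35 in contralateral RGCs. The groups overlapped because the rounds differed, but each ipsilateral value was the lower of its round, by −0.40, −0.28 and −0.59. The mean difference was −0.43, a 1.34-fold lower ipsilateral level (SE 0.45, limma adjusted p = 1.0). When rounds were blocked, the 95% interval was −0.80 to −0.06, with an unadjusted p of 0.0306 and a limma adjusted p of 0.303. Without ipsilateral replicate 1 the difference was −0.12, and without contralateral replicate 1 it was −0.74. The second probe set of Adgrl1, made from the same sequence record, differed by −0.20, −0.44 and −0.32, with a mean of −0.32.

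Adgrl2, a widely expressed latrophilin, varied little between arrays at its brightest probe set, 1434112_at. Its levels there were 9.35, 9.25 and 9.42 in ipsilateral and 9.39, 9.44 and 9.60 in contralateral RGCs. The mean difference was −0.14 (SE 0.38, limma adjusted p = 1.0), and the 95% interval was −0.95 to 0.67, or −0.49 to 0.21 with the block. This was the only latrophilin whose brightest probe set had an interval within 2-fold without the block. Its other probe sets, 1434111_at and 1444906_at, had mean differences of −0.29 and 0.31, in opposite directions. The first shares a sequence record with the brightest probe set. It varied more, with differences of 0.25, −0.88 and −0.23 in rounds 1 to 3.

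Adgrl3, a latrophilin studied for its part in synapse formation, had the most probe sets of the 10 genes. The brightest, 1460440_at, had values of 8.08, 8.90 and 8.86 in ipsilateral and 8.86, 8.95 and 9.17 in contralateral RGCs. Its difference was −0.38 (SE 0.40, limma adjusted p = 1.0), with −0.78 in round 1, −0.05 in round 2 and −0.31 in round 3. It was −0.11 without ipsilateral replicate 1, and −0.17 when all probe sets of the gene were averaged. A probe set from the same sequence record, 1428523_at, had a mean difference of −0.43 and was lower in all 3 rounds. The other 3 above the filter level had means of −0.05, 0.07 and −0.07. A sixth probe set, 1452819_at, also of that record, lay just below the filter level, with mean log2 values of 4.74 on the ipsilateral and 4.48 on the contralateral side.

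The FLRT genes had smaller differences at their brightest probe sets than most teneurins and latrophilins, from −0.11 to 0.15. Flrt3, which encodes a ligand of both latrophilins and Unc5 receptors, had values of 7.67, 8.94 and 7.94 in ipsilateral and 7.52, 8.71 and 8.38 in contralateral RGCs. Rounds 1 and 2 were higher in ipsilateral RGCs and round 3 was lower, so that the mean difference was −0.02 (SE 0.47, limma adjusted p = 1.0). Its interval with the replicate block was −0.49 to 0.45. The second probe set of Flrt3, of the same sequence record, differed by 0.01.

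Flrt2, the ligand through which Unc5 receptors repel migrating neurons, had values of 8.19, 8.93 and 8.68 in ipsilateral and 8.37, 8.87 and 8.88 in contralateral RGCs. The difference at this brightest probe set was −0.11 (SE 0.40, limma adjusted p = 1.0). A dimmer probe set, 1438702_at, differed in 1 direction in every round, by −1.05, −0.37 and −0.57. Its mean of −0.66 (SE 0.45) was the second most negative of the 28, with a limma adjusted p of 1.0, and of 0.237 with the block. The third, 1455096_at, had a mean of −0.27.

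Flrt1 was the single member with a positive difference at its brightest probe set. Its values were 8.41, 8.48 and 9.15 in ipsilateral and 7.88, 8.91 and 8.79 in contralateral RGCs. The differences were 0.53, −0.43 and 0.35, with a mean of 0.15 (SE 0.43, limma adjusted p = 1.0). The dimmer probe set, 1460041_at, pointed the other way, with −0.52, −0.35 and −0.31 and a mean of −0.39. Flrt1 lies within the span of Macrod1 and Flrt3 within that of Macrod2 in the RefSeq gene table, and whether their signals share transcripts with these genes was not tested.

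**Figure D2:**
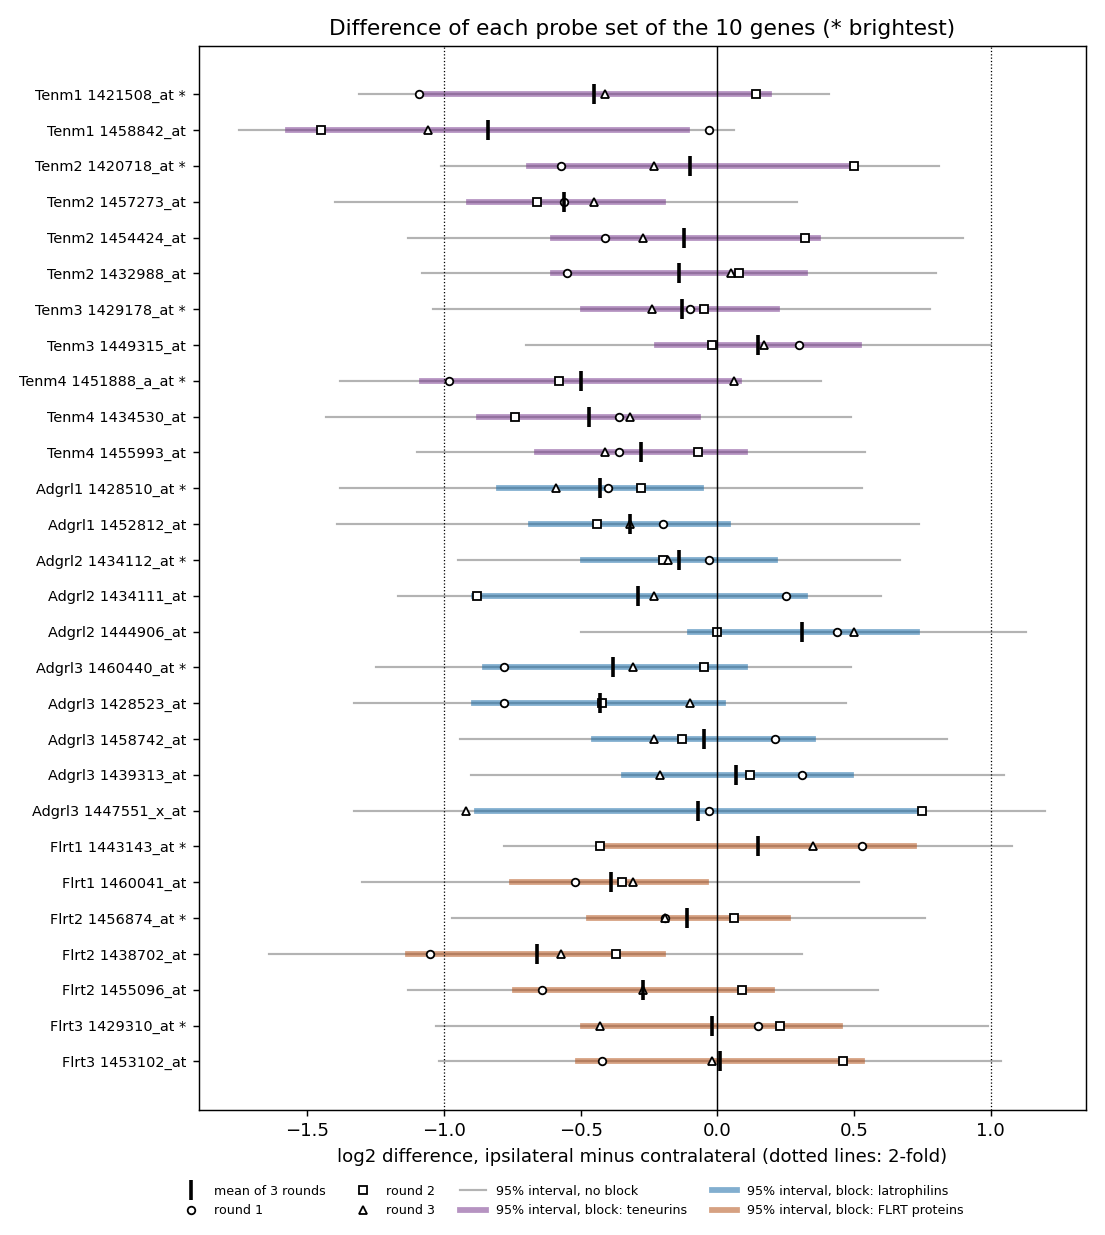
Log2 difference, ipsilateral minus contralateral (horizontal axis), of the 28 probe sets above the filter level. Ticks are means, open symbols the 3 rounds, thin gray lines 95% intervals without and thick colored lines with the replicate block; all means lie between −0.84 and 0.31, inside the dotted 2-fold lines.

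The precision of these differences depended on whether the samples of a round were paired. Without the block the median standard error over all probe sets was 0.44, and the 95% interval lay within 2-fold for 4 of the 28 probe sets, as it did for 19.7% of all probe sets. With the block the median standard error was 0.17, and the interval lay within 2-fold for 24 of 28, as it did for 83.6% of all. The exceptions were both probe sets of Tenm1, the brightest of Tenm4 and 1438702_at of Flrt2, whose intervals reached below −1. For these, a 2-fold lower ipsilateral level lay within the interval, and for the other 24 a 2-fold difference in either direction lay outside it.

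With the block, 6 of 28 probe sets were lower in ipsilateral RGCs at an unadjusted p under 0.05, as were 6.79% of all probe sets, and 0 of 28 were higher, as were 7.17% of all. The 6 belonged to 6 different genes, Tenm1, Tenm2, Tenm4, Adgrl1, Flrt1 and Flrt2, and the lowest limma adjusted p with the block was 0.210. For Adgrl1 alone among them it was the brightest probe set. The groups did not overlap for 2 of 28 probe sets with the contralateral values above, the ones of Tenm1 and Tenm2 described before, against 2.03% of all probe sets. With the ipsilateral values above, it was 0 of 28, against 3.26%.

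Probe sets of 1 gene did not always share a direction. All probe sets above the filter level pointed one way in 5 genes, Tenm1, Tenm2, Tenm4, Adgrl1 and Flrt2, each time towards contralateral RGCs. They pointed both ways in the other 5 genes. The median over genes of the spread between the lowest and the highest difference was 0.43, from 0.03 in Flrt3 to 0.60 in Adgrl2. The difference at the brightest probe set was at most 0.50 in size, which is of the same order as these spreads.

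**Figure D3:**
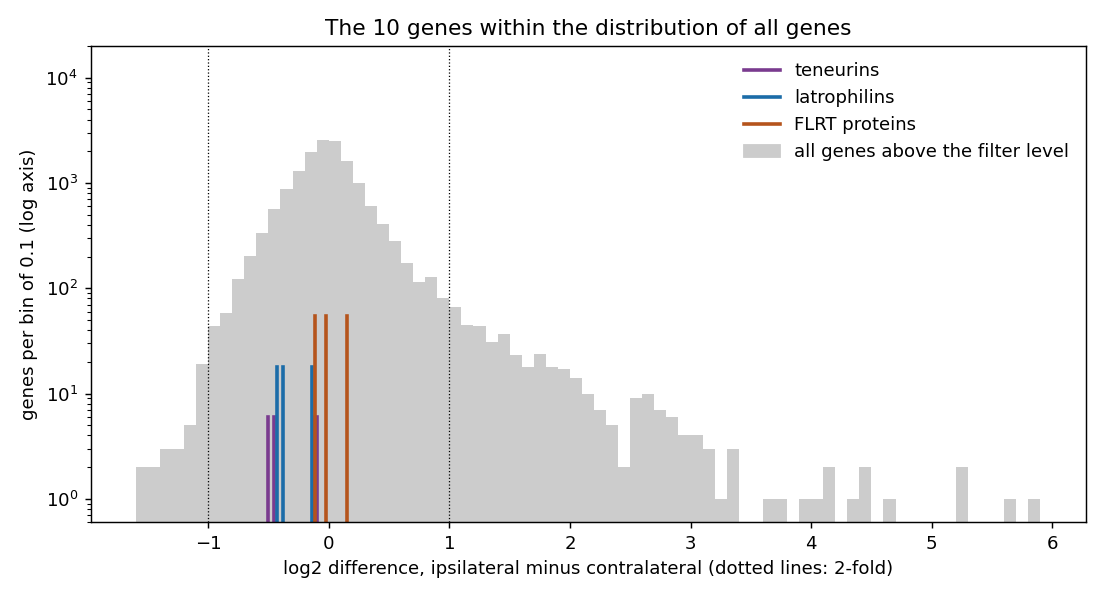
Number of genes (vertical log axis, gray bars) by log2 difference, ipsilateral minus contralateral (horizontal axis, bins of 0.1), over 15346 genes at their brightest probe sets. Colored lines mark the 10 genes, with a line height that only separates the families. All 10 lie between −0.50 and 0.15, far from the ipsilateral tail. Of all genes, 5.25% lie below the lowest, Tenm4, and 74.7% below the highest, Flrt1.

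The order of the families depended on the probe sets taken, and no test sets them apart. At the brightest probe sets, the median difference was −0.38 for the 3 latrophilins, −0.29 for the 4 teneurins and −0.02 for the 3 FLRT genes. Over every probe set above the filter level, it was −0.21 for latrophilins, −0.28 for teneurins and −0.11 for FLRT genes. Among all genes, 6.73% had a more negative difference than Tenm1 and 7.83% than Adgrl1. The shares were 35.9% for Tenm2, 31.2% for Tenm3, 30.4% for Adgrl2, 34.7% for Flrt2, 49.1% for Flrt3 and 74.7% for Flrt1.

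The latrophilins are the family in which the brightest probe set of every gene was lower in all 3 rounds in the deposited values, so the sequences around their starts are shown. Each run spans 250 bases before and 50 bases after the RefSeq start in build GRCm38.p6, 5′ to 3′ on the strand of the gene, with the most upstream start of 3 for Adgrl3. Capitals mark the letters CAGCAGG, a core of the motif of Zic factors, or TATAAA, the TATA box, on either strand. The motifs do not overlap one another.
Adgrl1, chr8:83899848-83900147, + strand: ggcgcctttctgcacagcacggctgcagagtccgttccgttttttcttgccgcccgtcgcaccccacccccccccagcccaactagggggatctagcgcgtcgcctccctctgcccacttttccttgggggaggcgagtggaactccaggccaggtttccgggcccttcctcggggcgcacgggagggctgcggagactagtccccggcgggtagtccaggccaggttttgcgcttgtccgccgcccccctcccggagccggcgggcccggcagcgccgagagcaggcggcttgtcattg
Adgrl2, chr3:148954586-148954885, - strand: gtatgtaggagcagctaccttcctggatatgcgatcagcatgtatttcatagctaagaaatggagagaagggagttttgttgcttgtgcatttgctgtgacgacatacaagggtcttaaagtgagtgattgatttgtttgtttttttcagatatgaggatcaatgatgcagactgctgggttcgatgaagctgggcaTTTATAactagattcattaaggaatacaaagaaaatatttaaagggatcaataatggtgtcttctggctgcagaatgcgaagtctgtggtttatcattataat
Adgrl3, chr5:81020321-81020620, + strand: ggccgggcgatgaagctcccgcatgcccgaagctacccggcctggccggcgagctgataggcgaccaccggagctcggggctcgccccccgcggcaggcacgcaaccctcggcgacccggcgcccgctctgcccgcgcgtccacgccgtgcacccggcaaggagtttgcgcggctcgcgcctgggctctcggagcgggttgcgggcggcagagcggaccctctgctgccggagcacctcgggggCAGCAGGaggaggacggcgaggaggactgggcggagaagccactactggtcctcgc

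The promoters of the latrophilins were unlike each other in these letters. The window of Adgrl1 was 70.0% G and C and held neither motif, that of Adgrl2 was 38.0% and held TATAAA, and that of Adgrl3 was 75.3% and held CAGCAGG. Of all 32851 promoters of this length, 10.5% held CAGCAGG and 13.6% held TATAAA on either strand, and the median content of G and C was 52.7%. Promoters were found for 9 of the 10 genes, 12 windows in all. Of these windows, 3 held CAGCAGG, 1 of Tenm4 and 2 overlapping ones of Adgrl3 that share the same site. TATAAA was held by 3 windows, of Tenm1, Adgrl2 and Adgrl3. A match says only that the letters are there.

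Known binding partners of the 3 families were compared from a list of 19 genes. Of these, 14 lay above the filter level and Unc5d and Rnd1 lay below it. The others on the list were not analysed here. None of the 14 was called, 0 in each direction by limma with or without the block. Of all 15346 genes, 55 were called without the block and 49 with it. In the fit without the block, 0 of the 14 reached an unadjusted limma p under 0.05, against 466 of all genes. With the block, 1 of the 14 was lower at that level, Unc5c, and 1 was higher, Fgfr1. Among all genes 1018 were lower and 1214 higher at that level. Their median difference was 0.02, with 7 positive and 7 negative.

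Among the receptors of FLRT proteins, Unc5c, which also binds netrin, had a mean log2 value of 9.61 (SD 0.38) in ipsilateral and 10.07 (SD 0.38) in contralateral RGCs, 3 arrays each, and the groups overlapped. It was lower in each ipsilateral sample, by −0.43, −0.39 and −0.56, with a mean of −0.46 (SE 0.41, limma adjusted p = 1.0). With blocked rounds, the SE of that mean was 0.14 and the limma adjusted p was 0.266. Unc5a and Unc5b had mean differences of 0.34 and 0.28, each from a single round, 1.19 in round 1 for Unc5a and 1.01 in round 2 for Unc5b. Robo1, the Slit receptor that FLRT3 binds, differed by −0.03. Gpc3, a proteoglycan that binds Unc5 receptors, differed by 0.14.

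Fgfr1, a growth factor receptor that FLRT proteins bind, was the partner with the largest difference. Its values were 7.22, 8.29 and 7.41 in ipsilateral and 6.71, 7.07 and 6.90 in contralateral RGCs, so that the groups did not overlap. The mean difference was 0.75, with 0.52, 1.22 and 0.51 in rounds 1 to 3 (SE 0.42, limma adjusted p = 1.0). With blocked rounds, the SE of that mean was 0.20 and the limma adjusted p was 0.221. The summed level of progenitor markers was also higher in ipsilateral RGCs in each round, by 1.34, 1.85 and 3.18, and its part in the value of Fgfr1 was not tested.

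Partners of the latrophilins and teneurins had mean differences from −0.46 to 0.22. The neurexin genes Nrxn2 and Nrxn3, whose products bind latrophilins at the synapse, had mean differences of −0.29 and −0.46. Cntn6, a contactin, differed by −0.14 with rounds in both directions. Dag1, which encodes dystroglycan, differed by 0.18. The scaffold genes Shank1 and Shank3 differed by −0.17 and −0.03, and the G-protein genes Gna12 and Gna13, through which latrophilins can signal, by 0.22 and 0.07.

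**Figure D4:**
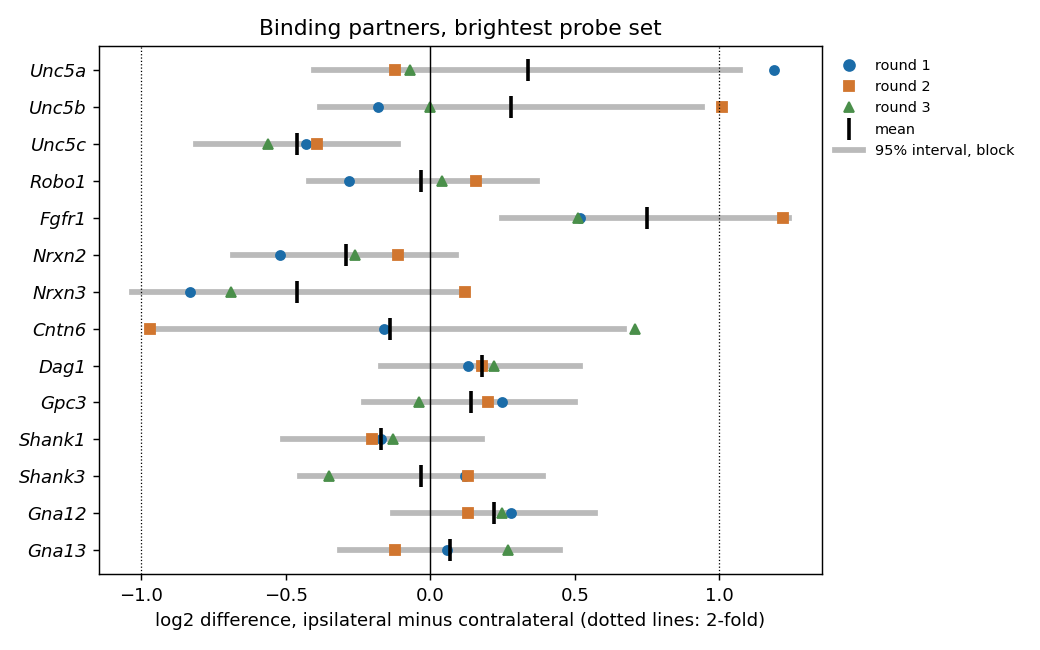
Log2 difference, ipsilateral minus contralateral (horizontal axis), of 14 binding partners at their brightest probe sets. Symbols are the 3 rounds, black ticks their means and gray bars 95% intervals with the replicate block; the interval of Unc5c lies below 0 and that of Fgfr1 above 0.

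For the member of each family with the largest difference, the genes with the most similar differences in the 3 rounds were listed, among 15345 other genes, by root mean square distance. Nearest to Tenm4 were Lypd6 at a distance of 0.065, Ccdc116 at 0.069 and Csgalnact2 at 0.070. Nearest to Adgrl1 were Dock3, at 0.038, Hsdl2, at 0.040, and Sema4g, at 0.041, and 89 genes lay within 0.1. Nearest to Flrt1 were Spty2d1, at 0.036, Top3b, at 0.048, and a probe set annotated to Mir1931, at 0.052. With 3 values a gene, such neighbors are a description only.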

How the data were processed

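Sorted ipsilateral and contralateral RGCs were measured on 6 Affymetrix mouse genome arrays from amplified cDNA. What was deposited is a log2 intensity for each probe set and array, for which the authors ran RMA (submitters' processing notes: Affymetrix Expression Console 1.1). Whether all arrays were normalized together is not stated. The lowest values on the arrays were 2.14 and 2.21 in round 1 and 3.89 and 3.86 in round 3. Like the medians, they were close within a round and apart between rounds. The part of the normalization in the gap between rounds was not tested. Of 45101 probe sets, 64 controls were left out, and those with a mean log2 value at or above the 20th percentile (4.74) were kept, which left 36029. In the array annotation, 34945 probe sets carry 1 gene symbol, 932 carry more and 9160 carry no symbol, and 34741 of the first kind were matched to RefSeq by Entrez identifier. The sides were contrasted without a block by lmFit and eBayes of limma 3.58.1 (R 4.3.3), tested on simulated data first, with Benjamini–Hochberg adjustment over all probe sets kept. The numbers of arrays and rounds limit the precision, and an exact permutation test of 3 against 3 cannot go below p = 0.10.

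The numbers in the sample titles pair the samples, since the methods state that both sides of a round were prepared together. Deviations from the group means correlated at 0.511, 0.541 and 0.612 within rounds and at −0.353 to −0.207 between them. Deviations from a mean cancel out within a group, so positive values within rounds bring negative values between them. The replicate block was an alternative, because the methods name a 2-fold change and an adjusted p but no paired test. Levels were not compared between genes. Summed levels of markers are the log2 of the mean linear intensity over the brightest probe sets. The genes named are the 10 members at every probe set, the 19 partners, the 3 nearest patterns for 1 member a family, and markers. Members and lists were chosen with earlier results of these data known. Promoter sequences are from RefSeq. Some genes on the lists are not reported here.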

Additional observations from a re-analysis of the deposited data

How the results depend on the processing

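No member and no partner was called under any of the 15 alternatives to the fit reported. These were the replicate block, no filter, the 50th percentile as filter, quantile normalization of the arrays, median centring, an intensity trend with robust estimation, a 1.5-fold threshold, unadjusted p, averaging the probe sets of each gene, and leaving out each of the 6 arrays. Tenm1, Tenm4, Adgrl1, Adgrl2 and Adgrl3 kept a negative difference under all 15, taken at the brightest probe set except where probe sets were averaged, whereas Tenm2 did so under 13, Tenm3 under 12, Flrt2 under 14 and Flrt3 under 10. Flrt1 stayed positive under 12. These counts include alternatives that cannot change a mean difference. They are the replicate block, both changes of the filter, trend and robust estimation, the 1.5-fold threshold and unadjusted p. Only the other alternatives bear on the direction. With 1 array left out, Tenm2 ranged from −0.34 to 0.14, Tenm3 from −0.37 to 0.09, Flrt1 from −0.17 to 0.34, Flrt2 from −0.27 to 0.10 and Flrt3 from −0.40 to 0.24. With averaged probe sets, Tenm3 was at 0.01 and Flrt1 at −0.12. The count of members lower in all 3 rounds was 1 after quantile normalization, in place of 4, and 5 after median centring. Over all probe sets, the 88 called as higher in ipsilateral RGCs became 179 with trend and robust estimation, 740 with unadjusted p and 44 with averaged probe sets, where fewer features are tested. Leaving out 1 array gave between 53 (without ipsilateral replicate 3) and 220 (without ipsilateral replicate 1), with 56 without contralateral replicate 3. The 0 called as higher in contralateral RGCs became 86 with unadjusted p. The replicate block changed no call of a member or partner, and gave 75 and 0 over all probe sets. The causes were not tested.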

Other observations

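Adgrl4, which encodes a receptor of endothelial cells related to the latrophilins, is not among the members and was looked up after their values were seen. Its brighter probe set had log2 values of 3.47, 6.92 and 4.96 in ipsilateral and 3.56, 6.99 and 5.00 in contralateral RGCs of rounds 1 to 3. The values moved with the round and differed by −0.09, −0.07 and −0.03 between the sides, a mean of −0.06. Its other probe set lay below the filter level.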
